A study of Mus musculus with 5 samples.

Results

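In mouse hippocampal neuronal nuclei, 515 bins of 50 kb, 25.75 Mb of the genome in all, lay in compartment B in the Basal and Early states and in compartment A in the Late state. The bins were chosen by the sign of the first principal component (PC1) of the Hi-C interaction matrix. Each had PC1 below 0 in both Basal libraries and in the single Early library, and above 0 in both Late libraries. The search covered the 44650 bins of the 18 autosomes other than chromosome 7 that had a value in all 5 libraries, so the chosen bins were 1.15% of them. They were also 2.25% of the 22910 bins below 0 in both Basal libraries. Because the rule read PC1 in every library, PC1 of these bins is given as a description, without a test.

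Chromosomes fold into segments that contact others of their own kind. Compartment A gathers open, gene-rich and mostly transcribed chromatin in the nuclear interior, and compartment B gathers closed, gene-poor chromatin, much of it at the nuclear lamina. Hi-C joins and sequences DNA ends that lie close together in the nucleus, and PC1 of the contact matrix separates the compartments, with positive values for A in HOMER's convention. PC1 is a unitless score with an SD near 1 in each library. Borders between A and B differ between cell types and can shift when a cell changes state.

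The libraries came from nuclei stained for NeuN, a neuronal nuclear protein, and for GFP, then sorted by flow cytometry from the hippocampus. All groups share a cross of ArcCreERT2 with R26R-STOP-floxed-eYFP mice, genotype +/+, in which a tamoxifen-dependent Cre under the activity gene Arc switches on a yellow fluorescent reporter. All also share 1 label for foot shock and tissue collection on the same day without recall, and a protocol with a dose of 4-Hydroxytamoxifen before contextual fear conditioning. They differ in their titles alone, as Basal (2 libraries), Early (1 library) and Late (2 libraries), and no time is read from those names. Each group was made from 100000 nuclei of 2 animals, and whether its libraries came from separate animals is not stated. Hi-C gives no expression values, so the neuronal label could not be checked against marker genes. The libraries listed between 50558 and 51726 bins and held 46.9% to 49.2% of the analysed bins in A. Read depth is unknown, since the files give no counts. The local noise of a library, estimated from the differences between libraries in how a bin departs from the bins 100 kb on either side, came to 0.121 and 0.124 PC1 units for the Basal replicates, 0.229 for Early, 0.113 for Late replicate 1 and 0.203 for Late replicate 2.

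The 515 bins lay close to the border of A and B in every library. PC1 had a median of -0.306 (range -0.981 to -0.00223) in Basal replicate 1 and of -0.302 (range -1.05 to -0.00411) in Basal replicate 2. In Early the median was -0.233, with a range from -1.72 to -0.00068. In Late replicate 1 the median was 0.241 (range 8.74e-05 to 1.01), and in Late replicate 2 it was 0.224 (range 0.000953 to 1.56). The Late and Basal ranges do not overlap, as the rule demands. Median Basal PC1 was -0.294 in the chosen bins, against -0.878 in all bins in B in both Basal libraries. None of the 515 bins had a Basal mean below -1, a depth reached by 39.7% of all such B bins. The bins therefore came from weak B chromatin and ended in weak A chromatin.

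**Figure D1:**
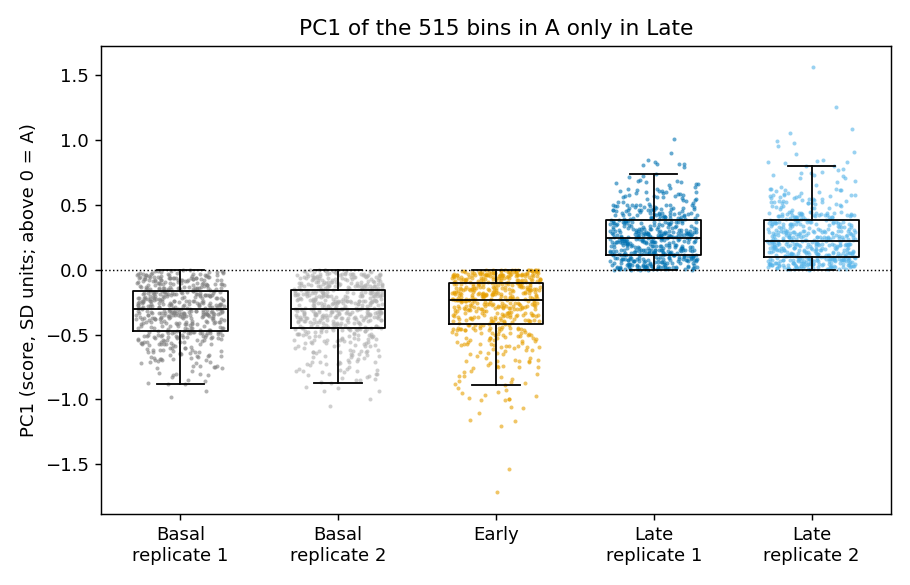
PC1 score of each of the 515 bins (points) in each library; boxes give the median and quartiles, and whiskers reach 1.5 times the box height. Medians lie near -0.3 in both Basal libraries, at -0.233 in Early and near 0.23 in both Late libraries; the split at 0 is set by the rule.

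Over the 515 bins, which the rule holds above 0 in both Late libraries, the means of the 2 Late libraries were alike. In the bins 100 kb beyond the runs they were 0.158 in Late replicate 1 and 0.0852 in Late replicate 2. Mean PC1 over the 515 bins was 0.265 and 0.269 in the Late libraries and -0.328 and -0.326 in the Basal libraries, with -0.297 in Early. Late minus Basal had a mean of 0.594 and a median of 0.565, and ran from 0.0504 to 1.48 over bins. Over all 44650 bins the mean of Late minus Basal was -0.00175. The bin with the largest difference, on chromosome 18 from 14050001 to 14100000, had PC1 of 0.603 and 0.825 in Late and of -0.540 and -0.996 in Basal, with -0.194 in Early.

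Early did not take a common position between Basal and Late. Early PC1 was above both Basal libraries in 257 of the 515 bins (49.9%), between them in 84 and below both in 174 (33.8%). Among all bins in B in both Basal libraries, Early was above both in 50.03% and below both in 38.0%. The median of Early minus Basal was 0.0622 in the chosen bins and 0.0562 in all bins in B in both Basal libraries. Late minus Early had a median of 0.518 in the chosen bins. Requiring Early below 0 caps these Early values, so the likeness to other B bins is a description of bins selected for it.

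The most alike bins are those that were in B in Basal and already in A in Early. Of 1341 autosomal bins in B in both Basal libraries and in A in both Late libraries, 515 (38.4%) were in B in Early and 826 were in A in Early. The 826 had a median Late minus Basal of 0.603 and a median Basal PC1 of -0.228. The bins in A only in Late had a median Basal PC1 of -0.294, slightly deeper in B. Splitting by the sign of Early favours a lower Basal PC1 on the B side. This gap thus follows in part from the split and was not tested. The opposite rule, A in Basal and Early and B in Late, held for 572 bins, with a median Late minus Basal of -0.670.

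Many calls of the sign were close ones. Early PC1 lay within its own local noise of 0 in 254 of the 515 bins (49.3%), and PC1 of Late replicate 2 in 243 (47.2%). For Late replicate 1 the count was 129, and for Basal replicates 1 and 2 it was 93 and 102. All 5 libraries passed their own local noise in 83 bins (16.1%). At a distance of 0.1 from 0 in every library 180 bins met the rule (35.0%), at 0.2 there were 59, and at 0.3 there were 7. These 7 bins lay on chromosomes 3 (3 bins), 4, 5, 8 and 18 (1 bin each). One of them, on chromosome 18 from 53150001 to 53200000, had 0.467 and 0.803 in Late and -0.423 and -0.702 in Basal, with -0.741 in Early.

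At the threshold itself, the 5 members closest to 0 were between 8.74e-05 and 0.000953 from it in their closest library. The 5 nearest bins left out missed by 0.00028 to 0.000839 in 1 library. Bins that failed in exactly 1 library numbered 826 for Early, 414 for Late replicate 1, 348 for Late replicate 2, 97 for Basal replicate 1 and 80 for Basal replicate 2. Without the Early library the rule held for 1341 bins, without Late replicate 1 for 929 and without Late replicate 2 for 863. Where the 0 line lies mattered for which bins were chosen: with the median of each chromosome aligned between libraries 497 bins met the rule, of which 262 were among the 515. Chromosome medians differed between Late and Basal by -0.112 to 0.188 PC1 units.

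The limma fit over 47652 bins of the 18 autosomes and X gives the spread between libraries behind these differences. For Late minus Basal the median SE over the 515 bins was 0.124, and 366 bins (71.1%) passed a Benjamini-Hochberg adjusted p of 0.05 as higher in Late, beside 8.78% of all bins. For Late minus Early the median SE was 0.152, and 224 bins (43.5%) passed as higher in Late, beside 6.28% of all bins. For Early minus Basal 21 bins passed as higher in Early and 26 as lower, beside 9.97% and 9.98% of all bins. The rule used all 3 contrasts, which share libraries, so nothing is read from these shares. The counts depended on single libraries. Among the 515, each of these counts fell without either Basal library and rose without either Late library. Each such fit leaves 1 library in the group concerned. In the fit to all sequences as deposited, chromosome 7 included, limma called none of the 515 bins for Late versus Basal or for Late versus Early.

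The bins in A only in Late formed many short pieces. Merged across a gap of at most 1 bin they made 304 runs, of which 190 (62.5%) were single bins, 65 had 2 bins and 49 had 3 or more. The 49 longer runs held 195 bins (37.9%), and the longest spanned 650 kb. The bins that were in A in Early and Late made 392 runs, of which 52.6% were single bins, and their longer runs held 52.3% of the bins. Longer runs of bins in A only in Late had larger differences: the median Late minus Basal was 0.464 in single bins and 0.649 in runs of 3 or more, while median Early minus Basal was 0.0186 and 0.0697. Run length and these differences were read from the same PC1 values, and PC1 is smooth along the chromosome. The trend with run length therefore follows in part from the rule and was not tested.

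Most runs did not touch Basal compartment A. On neither side was the next bin in A in both Basal libraries for 192 of the 304 runs (63.2%), on one side for 109 (35.9%) and on both sides for 3. The runs with A on neither side had a median Late minus Basal of 0.592, and those with A on one side 0.437. For runs of bins in A in Early and Late these medians were 0.538 and 0.525. Basal PC1, which is smooth along the chromosome, enters both the grouping of runs and the difference. The contrast in size thus follows in part from the choice of bins and was not tested. For the bins in A in Early and Late, A on neither side made up 49.0% of runs and A on both sides 6.38%. By distance, 115 of the 515 bins (22.3%) lay next to a bin in A in both Basal libraries, with a median distance of 200 kb, and 38 lay more than 1000 kb away. Among all bins in B in both Basal libraries 4.22% lay next to such a bin, and the median distance was 700 kb. Weak PC1 goes with nearness to a border, and the rule favours weak PC1, so this position follows in part from the choice of bins.

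Read as stretches of neighbouring bins with a Basal mean below 0, the B segments that held the chosen bins were short. The median B stretch around a chosen bin was 950 kb long, against 3050 kb for all bins in B in both Basal libraries and 650 kb for the bins in A in Early and Late. The chosen bins lay in 247 such stretches. In 57 of these (23.1%) every bin had a Late mean above 0, so that the whole B segment was gone in Late, and the longest of them measured 1550 kb. A stretch was counted only if it held a bin above 0 in both Late libraries, so the rule sets part of this share. No share over other B stretches is given beside it. In only 8 of the 247 was every bin of the stretch itself a chosen bin. Within 5 Mb of the first listed bin of a chromosome lay 14 of the 515 bins (2.72%), beside 3.83% of all analysed bins. Among all bins in B in both Basal libraries this share was 4.51%, and among the bins in A in Early and Late 2.30%. Within 5 Mb of the last listed bin lay 6 of the 515 (1.17%), beside 4.00% of all analysed bins. There the share was 2.37% of all such B bins and 1.45% of the bins in A in Early and Late.

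The difference between Late and Basal extended into the bins around the runs, which the rule did not choose. PC1 is smooth along the chromosome, so these bins carry part of the choice, and the difference there was not tested. At 100 kb beyond the edge of a run, where windows no longer overlap those of the run, mean PC1 over 600 bins was -0.200 for Basal replicate 1 and -0.201 for replicate 2. It was -0.0759 for Early, 0.158 for Late replicate 1 and 0.0852 for Late replicate 2. At 500 kb the Basal replicates averaged -0.107 and -0.104, Early -0.0573 and the Late replicates 0.0818 and 0.0748. Both Late libraries thus stayed above both Basal libraries at these distances, with Early between them. Late minus Basal was 0.322 at 100 kb, 0.184 at 500 kb, 0.0724 at 1000 kb and 0.0378 at 2000 kb, beside -0.00175 over all bins. Over all bins in B in both Basal libraries it averaged 0.0414. Early minus Basal was 0.125 at 100 kb and 0.0482 at 500 kb.

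**Figure D2:**
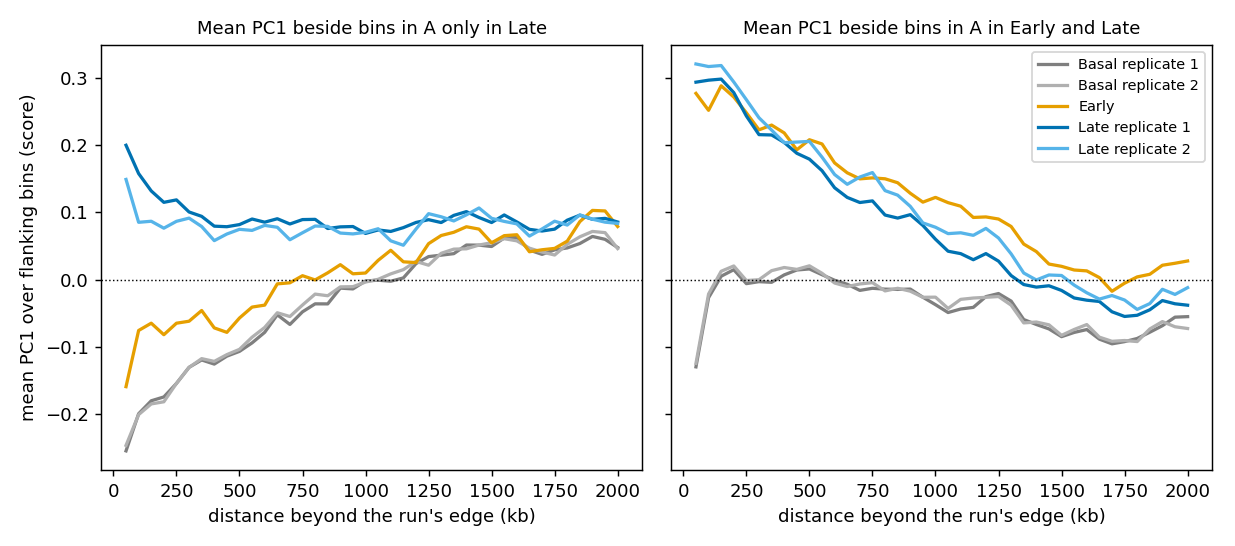
Mean PC1 score of each library (lines) over the bins at a given distance in kb beyond the edges of runs, chosen bins left out, for runs in A only in Late (left) and runs in A in Early and Late (right). On the left Early lies between Basal and Late out to 500 kb (-0.0573, with 0.0818 and 0.0748 in Late and -0.107 and -0.104 in Basal), and on the right it lies near the Late libraries at 100 kb (0.252, with 0.297 and 0.317 in Late) and above them at 1000 kb (0.122, with 0.0600 and 0.0779).

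At 100 kb, Late minus Early was 0.197 around the bins in A only in Late, against 0.0550 around the bins in A in Early and Late. Around the second set Late minus Basal was 0.331 and Early minus Basal 0.276, so Early was nearer to Late than to Basal there. The sets were told apart by the sign of Early within the runs, and PC1 is smooth along the chromosome, so this contrast in the flanks carries the selection with it and was not tested. Within the set itself Early dipped locally: its mean deviation from the bins 100 kb on either side was -0.162, while the mean of those neighbouring bins was -0.135. In Late replicates 1 and 2 the deviations were 0.0537 and 0.122, with neighbouring means of 0.211 and 0.147. In the Basal replicates the deviations were -0.0758 and -0.0719. Larger deviations stood in the libraries with the larger local noise, Early (0.229) and Late replicate 2 (0.203), and the part of noise in the choice of bins was not tested. The neighbouring bins met the full sign rule on their own, as the mean of both sides, for 138 of 514 bins (26.8%).

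Bins in A only in Late were found on each of the 18 autosomes analysed. Chromosome 8 held 58 of them (2.32% of its bins), chromosome 1 held 52 (1.36%), chromosome 10 held 48 (1.89%) and chromosome 3 held 46 (1.47%). Chromosome 12 had the lowest share with 10 bins (0.442%), and the median over chromosomes was 1.06%. The share of B to A bins that were still in B in Early ran from 25.2% on chromosome 5 and 25.4% on chromosome 4 to 52.3% on chromosome 8 and 56% on chromosome 17, with a median of 39.2%. On chromosomes 4 and 5 most such bins were thus already in A in Early, as were 826 of the 1341 over all 18 autosomes. Chromosome 17 gave its share from 25 B to A bins, and chromosome 8 from 111. Chromosome medians differed from Basal by -0.112 to 0.188 PC1 units in Late and by -0.0930 to 0.211 in Early. Shares by chromosome with these medians aligned are not given.

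**Figure D3:**
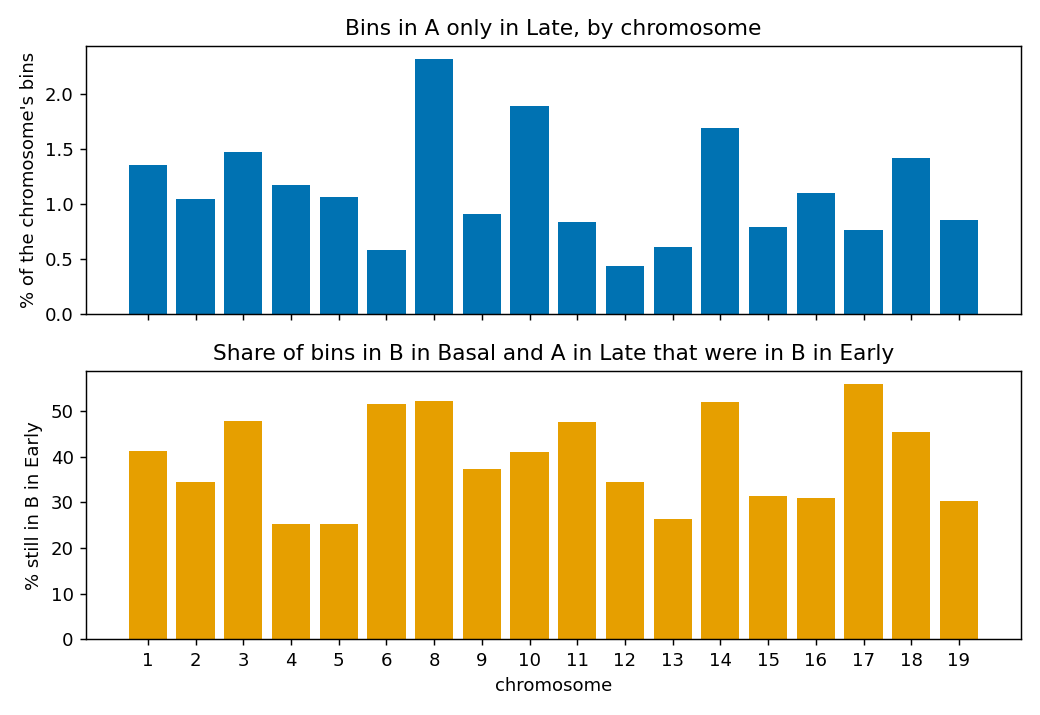
Upper bars give the bins in A only in Late as a percent of each chromosome's analysed bins, and lower bars the percent of bins in B in Basal and A in Late that were still in B in Early. Chromosome 8 is highest above with 2.32% and chromosome 12 lowest with 0.442%; below, chromosomes 4 and 5 are lowest, near 25%.

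Early PC1 of the chosen bins also differed between chromosomes. Mean Early minus Basal over the chosen bins was 0.161 on chromosome 4 and 0.163 on chromosome 10, but -0.232 on chromosome 13, -0.234 on chromosome 15, -0.195 on chromosome 17 and -0.198 on chromosome 19. On chromosome 16 the mean was -0.159 in the chosen bins, against 0.248 in all bins in B in both Basal libraries, and on chromosome 19 it was -0.198 in the chosen bins, against 0.252 in all such B bins. The rule holds Early below 0 in the chosen bins and not in the other B bins. Lower Early means in the chosen bins therefore follow in part from the choice. These means rest on 10 to 48 bins per chromosome and 1 Early library.

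Of the runs, 18 were named: the 10 with most bins and the 10 of at least 3 bins with the largest Late minus Basal, with 2 in both lists. Ties in bin number went to the larger Late minus Basal, which left out 1 run of 5 bins, on chromosome 3 from 109000001 to 109250000, with a Late minus Basal of 0.422. The named runs hold 93 bins, and Late minus Basal ran from 0.604 to 1.17. Early was above both Basal libraries in 13 of them and below both in 2. Coordinates are 1-based in mm9, and PC1 is the mean over the chosen bins of a run.

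**Figure D4:**
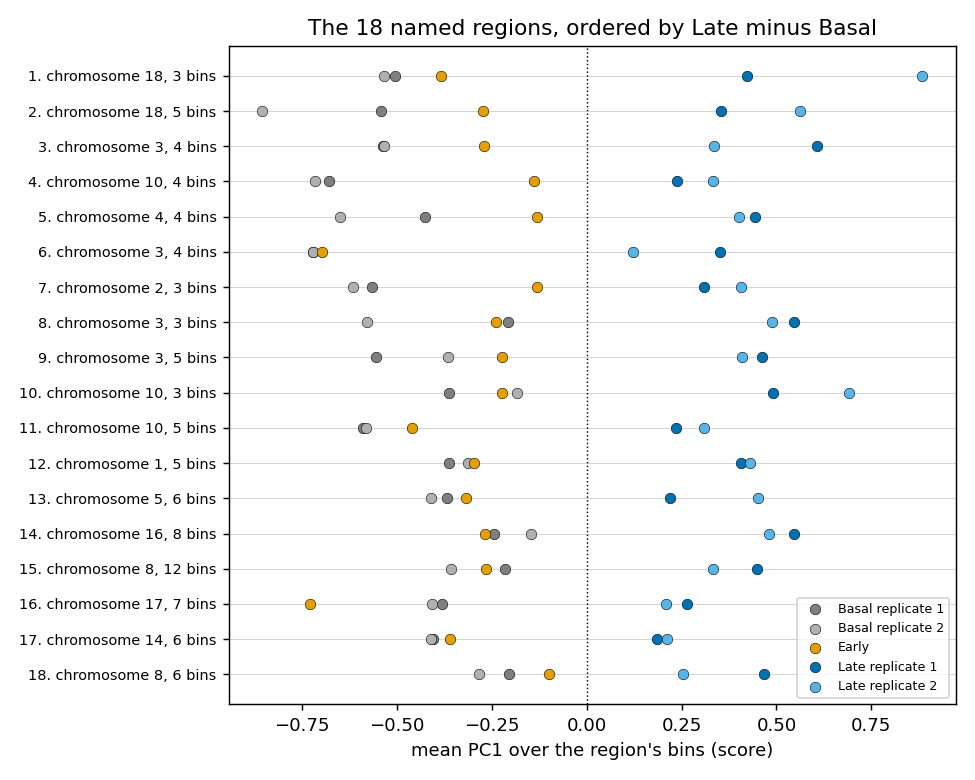
Mean PC1 score of each library (points) over the chosen bins of the 18 named regions, ordered from the largest Late minus Basal (1.17, top) to the smallest (0.604, bottom). Early lies close to 0 in the regions numbered 4, 5, 7 and 18 and below both Basal libraries in those numbered 14 and 16.

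The longest region was on chromosome 8 from 91550001 to 92200000, with 12 chosen bins. PC1 was 0.448 and 0.332 in Late and -0.215 and -0.358 in Basal, with -0.265 in Early. Late averaged 0.390 ± 0.082 and Basal -0.286 ± 0.101 (SD, n = 2 each), a difference of 0.676. Early sat between the Basal replicates. The bins next to it were not in A in both Basal libraries, but further out mean PC1 was above 0: from 100 to 500 kb before it PC1 averaged 0.47 for Basal, 0.61 for Early and 0.95 for Late, and over the same distance after it 0.22 for Basal, 0.09 for Early and 0.49 for Late. All 12 bins met the rule with a 3-bin running mean, 6 with chromosome medians aligned and 0 with a 10 Mb running mean subtracted.

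Chromosome 18 held the largest differences, in 2 regions of different surroundings. From 13900001 to 14150000 (5 bins) PC1 was 0.353 and 0.562 in Late and -0.543 and -0.855 in Basal, with -0.273 in Early. The difference of 1.16 came with flanks that stayed in B: from 100 to 500 kb before the region PC1 averaged -0.98 for Basal, -0.53 for Early and -0.26 for Late, and after it -1.16 for Basal, -0.64 for Early and -0.39 for Late. No other named region had a Late mean below 0 on both sides, so this was a local A peak inside a B segment. Of its 5 bins 4 met the rule with chromosome medians aligned and 1 with a 10 Mb running mean subtracted. From 53100001 to 53300000 (3 bins) PC1 was 0.423 and 0.885 in Late and -0.505 and -0.534 in Basal, with -0.383 in Early. Its difference was 1.17, with Late at 0.654 ± 0.327 and Basal at -0.520 ± 0.020 (SD, n = 2 each), so the Late replicates were far apart. All 3 of its bins met the rule under each of the other scalings and running means tried and at a margin of 0.1.

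Chromosome 3 held 4 named regions. From 34600001 to 34800000 (3 bins) PC1 was 0.546 and 0.488 in Late and -0.207 and -0.578 in Basal, with -0.238 in Early. From 35050001 to 35350000 (5 bins) it was 0.462 and 0.408 in Late and -0.555 and -0.366 in Basal, with -0.223 in Early. In the first region 1 of 3 bins met the rule with chromosome medians aligned, and 1 did at a margin of 0.1. With a 10 Mb running mean subtracted 1 did. In the second region these counts were 5, 5 and 0 of 5 bins. The regions lie 250 kb apart. From 100 to 500 kb beyond them, where each includes part of the other, Late minus Basal averaged 0.92 and 0.64, against 0.910 and 0.896 within them. The higher PC1 thus ran across a wider segment than the chosen bins. From 141950001 to 142150000 (4 bins) PC1 was 0.608 and 0.336 in Late and -0.536 and -0.534 in Basal, with Early at -0.270. The region from 115300001 to 115550000 (4 bins) differed from the other 3 in Early, at -0.698 beside -0.721 and -0.722 in Basal, with 0.351 and 0.123 in Late. It lay at the border of a B segment, at -0.96 in Late and -1.10 in Basal before it, and of an A segment after it, at 1.00 in Late and 0.37 in Basal.

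In 4 regions the Early mean lay nearest to 0. On chromosome 10 from 43700001 to 43900000 (4 bins) Early was -0.140, with 0.239 and 0.333 in Late and -0.678 and -0.716 in Basal. Early was -0.132 on chromosome 4 from 55800001 to 56050000 (4 bins), with 0.445 and 0.402 in Late and -0.425 and -0.651 in Basal. On chromosome 2 from 49900001 to 50050000 (3 bins) it was -0.131, with 0.310 and 0.408 in Late and -0.567 and -0.617 in Basal. Early minus Basal was 0.557, 0.406 and 0.461 in these 3 regions, and Early was above both Basal libraries in each of them while below 0 in every chosen bin. From 100 to 500 kb before them Early averaged 0.40, 0.51 and 0.66, with Late at 0.47, 0.67 and 0.30. Over the same distance after them Early averaged -0.49, 0.20 and -0.11, with Late at -0.22, 0.32 and -0.42. On chromosome 2 Early was -0.042, -0.245 and -0.106 in the chosen bins, beside 0.211 and 0.454 in the bins next to them. The local noise of Early was 0.229. The fourth region, on chromosome 8 from 27500001 to 27900000 (6 bins), had -0.0993 in Early, 0.466 and 0.253 in Late and -0.204 and -0.284 in Basal. Of its 6 bins 1 met the rule with chromosome medians aligned, 1 at a margin of 0.1 and 4 with a 10 Mb running mean subtracted.

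In 2 regions Early lay deeper in B than Basal. On chromosome 17 from 32800001 to 33200000 (7 bins) Early was -0.730, with 0.263 and 0.208 in Late and -0.382 and -0.408 in Basal. This was the lowest Early mean of the 18 regions, and both Late and both Basal values lay close together, at 0.236 ± 0.039 and -0.395 ± 0.019 (SD, n = 2 each). On chromosome 16 from 24700001 to 25100000 (8 bins) Early was -0.268, with 0.545 and 0.481 in Late and -0.245 and -0.148 in Basal. Before this region, from 100 to 500 kb away, Early was 0.74 where Late was 0.42 and Basal -0.29, so Early changed from A to B over a short distance. With chromosome medians aligned 0 of its 8 bins met the rule.

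**Figure D5:**
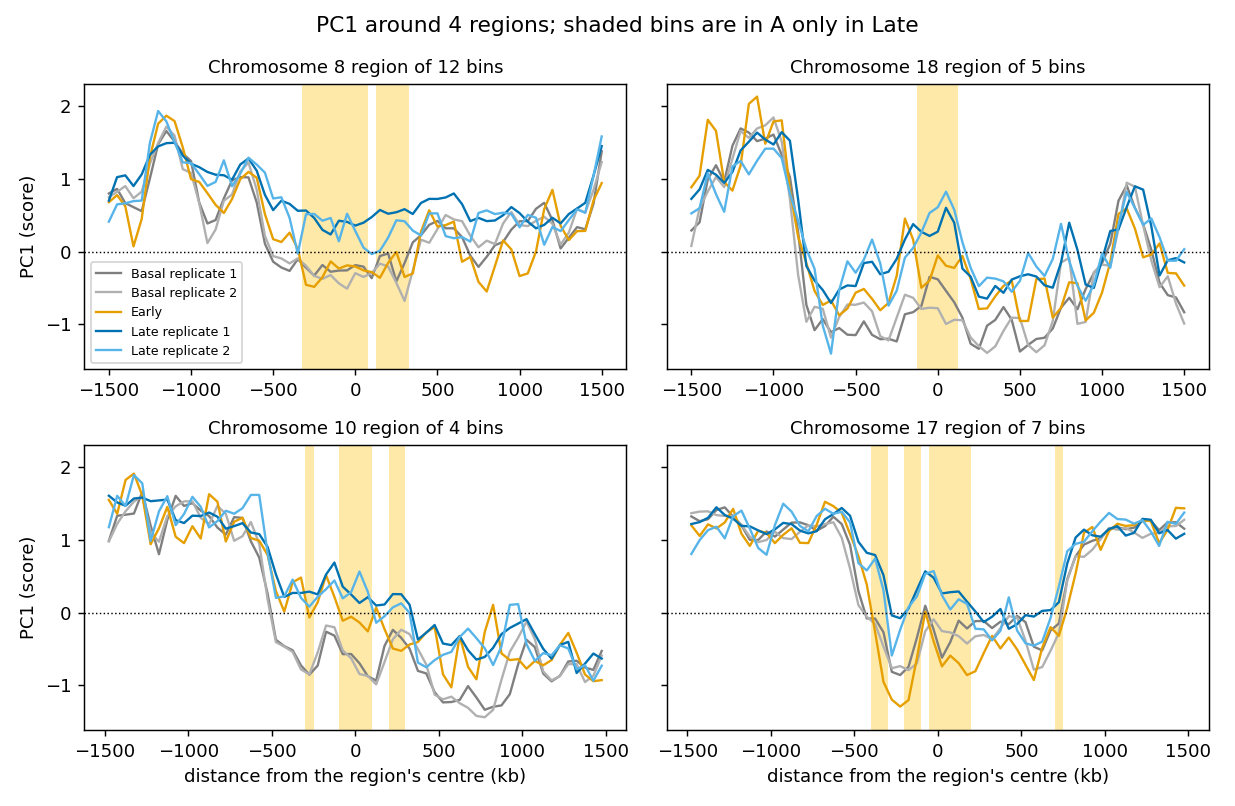
PC1 score of each library (lines) against distance in kb from the centre of 4 named regions on chromosomes 8, 18, 10 and 17; shaded bins are in A only in Late. Late lies above Basal across the shaded bins in each panel; Early follows Basal on chromosome 8 and is lowest on chromosome 17, with a mean of -0.730.

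In the other 5 regions Early stayed near Basal. On chromosome 10 from 6400001 to 6650000 (5 bins) PC1 was 0.236 and 0.309 in Late and -0.589 and -0.582 in Basal, with -0.460 in Early. All 5 of its bins met the rule under each scaling and running mean tried and at a margin of 0.1. Chromosome 10 from 12850001 to 13000000 (3 bins) had 0.490 and 0.692 in Late, -0.363 and -0.184 in Basal and -0.224 in Early. Chromosome 1 from 108350001 to 108600000 (5 bins) had 0.408 and 0.431 in Late, -0.363 and -0.313 in Basal and -0.297 in Early. In Basal these 3 regions lay between A on one side and B on the other. Chromosome 5 from 20550001 to 20950000 (6 bins) had 0.218 and 0.452 in Late, -0.367 and -0.410 in Basal and -0.319 in Early. Chromosome 14 from 71400001 to 71700000 (6 bins) had 0.186 and 0.211 in Late, -0.406 and -0.410 in Basal and -0.359 in Early. Over these 5 regions Early minus Basal ran from 0.0405 to 0.126.

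Around the 18 regions, from 100 to 500 kb beyond each edge, Late was above Basal on 35 of 36 sides. With a 10 Mb running mean subtracted 38 of the 93 bins in the named regions met the rule, and 6 regions kept none: those on chromosomes 1, 2, 14 and 17, the one on chromosome 3 from 35050001 and the one on chromosome 8 from 91550001. With chromosome medians aligned 58 of the 93 bins did, and 17 of the 18 regions kept at least 1. By their Late means 10 regions had A on both sides, 7 had A on one side and 1 had B on both. By their Basal means 2 had A on both sides, 12 had A on one side and 4 had B on both. Of the 18 regions, 10 were picked for a high Late minus Basal, all 18 hold bins selected by the rule, and neighbouring bins are not independent of them.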

How the data were processed

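Each library has 1 deposited table with a signed PC1 score for every 50 kb bin, from windows of 100 kb. Per the submitters' processing notes HOMER and mm9 were used. Versions, aligner, read filters and how the sign was set: not given in the sources used here. Each chromosome is centred near 0, so overall compartment strength cannot be compared between libraries. Bins with a value in all 5 libraries numbered 50542. Chromosome 7 was left out of the search because Late replicate 1 has the opposite sign there (r = -0.976 with Late replicate 2). Differences were fitted to the unscaled values with limma (version 3.58.1, R version 4.3.3), all 5 libraries in 1 fit (2 residual degrees of freedom, prior 6.6), 2-sided, adjusted by Benjamini-Hochberg at 0.05. The fit takes the spread of Early, with 1 library, to equal that of the other groups, p-values measure the spread between libraries, and neighbouring bins are not independent. The fit was tested on simulated data. All else used scipy 1.17.1, pandas 2.3.3 and numpy 2.4.6 under Python 3.11.15.

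The rule, the regions and the tests were chosen with earlier results of these data known. Named regions are the 10 longest runs and the 10 of at least 3 bins with the largest Late minus Basal, ties in length going to the larger Late minus Basal. Alternatives were other scalings, a margin of 0.1, a 10 Mb running mean subtracted, a 3-bin running mean (added after the data were seen), other sequences in the fit, a replicate block and leaving out each library. Genes in the bins are not reported, since an annotation in mm9 was not used here.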

Additional observations from a re-analysis of the deposited data

Results flagged for a closer look

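Outside the chromosomes searched, the same sign rule held for 12 of 3002 bins on X, where 152 bins were in B in both Basal and in A in both Late libraries, so 7.89% of these were still in B in Early, beside 38.4% on the autosomes. On chromosome 7, with the sign of Late replicate 1 inverted, it held for 150 of 2684 bins, and 91.5% of the 164 bins in B in Basal and A in Late were still in B in Early. These bins were picked out because they carry the pattern in sequence that the report's comparisons leave out, and they were not tested. Sex of the animals is not labelled, so on X sex and state cannot be told apart.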

How the results depend on the processing

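The count of 515 bins was 497 with chromosome medians aligned, 475 with quantile normalization (430 shared), 537 with a 10 Mb running mean subtracted (103 shared), 521 with a 3-bin running mean (356 shared) and 180 with a margin of 0.1. Leaving out 1 library gave 595 to 1341 bins, which contain the 515 by construction. Their mean Late minus Basal was 0.530 with medians aligned, 0.535 with quantile normalization and 0.592 to 0.596 without single libraries. The share next to Basal A was 30.5% with A read from the Basal mean, and the runs numbered 339 with no gap allowed. For the 18 named regions the 108 alternative values of Late minus Basal ran from 0.487 to 1.40; the rule fixes their sign when a library is left out. Over all bins limma called 4184 higher in Late than Basal, 2991 higher in Late than Early and 4749 higher in Early than Basal. With all sequences as deposited these were 0 (13365 bins of either direction at an unadjusted p under 0.05), 0 (12635) and 927. Without single libraries they were 1305 to 7282, 1913 to 6238 and 2101 to 8961. The cause was not tested. With the replicate block they were 4664, 2875 and 4786. Basal and Late libraries share only a number: the replicate differences correlated with r = 0.0111 across bins, and the block changed no count by over 1.5 times. The share of bins with a gene start was not run, because genes in mm9 were not used here. Unknown depth limits every value near 0.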
